A study of Mus musculus with 16 samples.

Results

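RNA bound to astrocyte ribosomes (IP) was compared with RNA of the whole tissue lysate (INPUT) in the somatosensory cortex of naïve mice. These were the 4 libraries labelled control among the IP libraries and the 4 labelled control among the INPUT libraries, 8 of the 16 libraries of the series. All mice were Aldh1l1CreERT2-RiboTag on a C57BL/6J background and 3 months old, had received tamoxifen at 2 months, and in the naïve group stayed in the home cage. The other 8 libraries, 4 IP and 4 INPUT, came from mice of the same genotype, age and tamoxifen treatment that swam for 20 min and rested for 90 min. Cre was driven by the Aldh1l1 promoter and acted only after tamoxifen, so the tagged cells are those in which that promoter was active then. Input RNA was taken from part of each lysate and IP RNA from the rest, so the naïve IP and INPUT libraries share their mice, but the labels do not say which library belongs with which. Library numbers are used below as replicate numbers, 2, 8, 11 and 13 for IP and 3, 7, 14 and 16 for INPUT.

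In the RiboTag method a Cre-expressing cell makes the ribosomal protein Rpl22 with a hemagglutinin tag, and an antibody against the tag pulls down ribosomes together with the mRNA on them. Astrocytes are the glia that take up transmitter glutamate and buffer potassium around synapses, wrap vessels with endfeet, store glycogen and supply lipids and serine to neurons. Whole cortex RNA comes mostly from neurons, with astrocytes, oligodendrocytes, microglia and vascular cells as further sources.

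The label of the IP fraction was checked first on 4 marker genes. Slc1a2, the main glutamate transporter of forebrain astrocytes (chromosome 2, 102658659 to 102790784, GRCm38 with GENCODE M21), had 67457, 71707, 71666 and 70642 reads per 1000000 reads on genes (CPM) in the 4 IP libraries, in the order given above. In INPUT it had 4115, 4173, 3865 and 3907 CPM. Every IP library thus lay far above every INPUT library, with a log2 ratio of IP over INPUT of 4.13 (standard error 0.07, limma adjusted p = 9.6e-15). This log2 ratio is the difference of the group means of log2(CPM + 0.1). Kcnj10, the inward rectifier that carries potassium into astrocytes (chromosome 1, 172341210 to 172374085), had 2128, 2742, 1651 and 3107 CPM in IP against 83.4, 153, 69.0 and 127 CPM in INPUT. Its log2 ratio of 4.50 (standard error 0.23) was the highest of all genes tested, but its 4 libraries were spread more widely within each fraction than those of Slc1a2. Gja1, which encodes connexin 43 of the astrocyte gap junction (chromosome 10, 56377330 to 56402513), had 2086 ± 109.9 CPM in IP against 171 ± 8.18 CPM in INPUT (SD, n = 4 each) and a log2 ratio of 3.61. Aldh1l1, the folate enzyme whose promoter drove Cre (chromosome 6, 90486427 to 90600203), had 921 ± 72.8 CPM in IP against 83.1 ± 5.80 CPM in INPUT (SD, n = 4 each) and a log2 ratio of 3.47. All 12 genes of the astrocyte marker list were higher in IP, each beyond 2-fold. Rpl22, whose product carries the tag, was lower in IP, with 26.9, 26.2, 24.9 and 27.7 CPM against 51.4, 44.1, 46.7 and 49.9 CPM in INPUT, and the tagged and untagged copies are not told apart in these values.

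Of 24060 genes in the tables, 13339 were tested because their mean over the 8 libraries exceeded 1 CPM. At an adjusted p under 0.05, 3158 genes were higher in IP (23.7%) and 8540 were lower (64.0%), so that 87.7% differed. For 83.7% of the genes tested the 4 IP values did not overlap the 4 INPUT values. In a limma test against a 2-fold change, 1403 genes were higher beyond 2-fold (10.5%) and 4192 were lower (31.4%). The median log2 ratio was −0.64, the 10th percentile was −2.93 and the 90th was 1.36. High ratios ended sooner than low ones: 254 genes lay above 3 and 13 above 4, against 1249 below −3 and 230 below −4. Genes higher beyond 2-fold took 50.9% of the reads in IP and 7.79% in INPUT. Genes lower beyond 2-fold took 8.96% in IP and 47.5% in INPUT. IP replicate 11 stood apart for markers of some other cells and INPUT replicate 14 for short structural RNAs, with values given beside those genes. In bulk tissue, fewer cells of a type and less RNA per cell cannot be told apart.

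**Figure D1:**
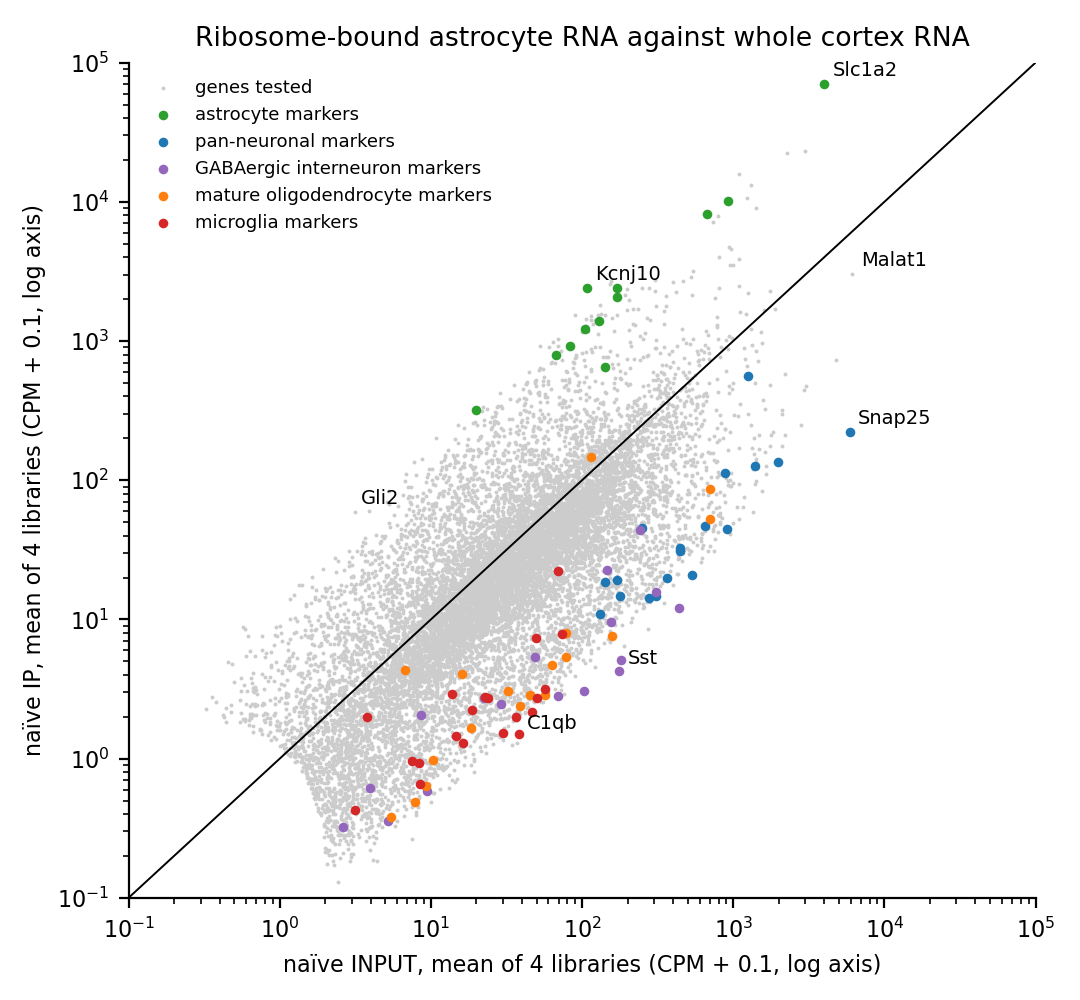
Mean level of each of the 13339 genes tested in naïve INPUT (x axis) and naïve IP (y axis), CPM + 0.1 on log axes, 4 libraries each, with the line of equal level and the markers of 5 cell types in colour. All 12 astrocyte markers lie above the line, and all markers of the other cell types shown lie below it except Cnp, an oligodendrocyte marker.

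The IP reads were concentrated on far fewer genes. The most abundant gene held 6.75% to 7.17% of the reads in the IP libraries and 0.596% to 0.685% in INPUT. The 10 most abundant genes of each library held 19.1% ± 0.342 in IP and 3.78% ± 0.0499 in INPUT (SD, n = 4 each), with no overlap (exact permutation test, two-sided, over the 70 labelings of 8 libraries; p = 0.029, which is the lowest value possible). A share of 50% of the reads was reached with 322 to 353 genes in IP and with 997 to 1033 in INPUT.

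**Figure D2:**
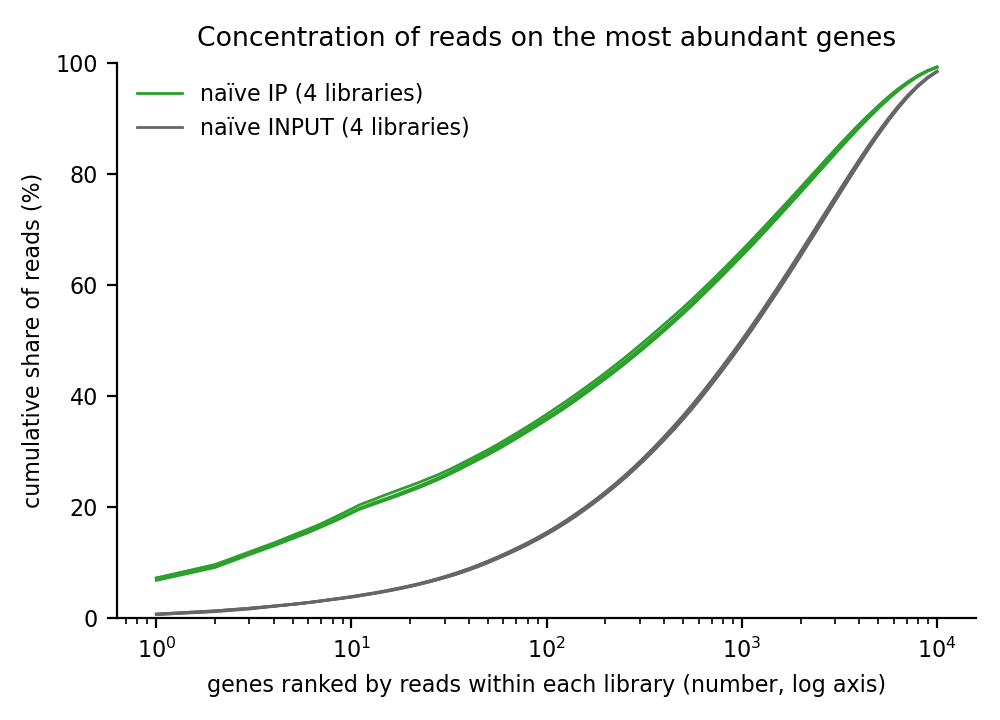
Cumulative share of reads (y axis, %) against the number of genes, ranked by reads within each library (x axis, log scale), for the 4 naïve IP and 4 naïve INPUT libraries. The curves of the 2 fractions do not touch, and the 10 most abundant genes reach 18.9% to 19.6% in IP against 3.74% to 3.83% in INPUT.

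Among the 10 genes with the most reads in IP were Slc1a2, Sparcl1, Glul, Apoe, Scd2, Aldoc, Cpe, Slc1a3 and Ndrg2. Sparcl1, a secreted matrix protein that promotes synapse formation, had 23329.8 ± 819.7 CPM in IP against 3006 ± 99.5 CPM in INPUT (SD, n = 4 each). Glul, glutamine synthetase, had 22371 ± 815 CPM in IP against 2271 ± 106 CPM in INPUT, and Apoe, the main lipoprotein of the brain, had 13226 ± 391 CPM in IP against 1314 ± 82.9 CPM in INPUT. Ranked per kilobase of exon, which allows levels of genes to be compared, Sparcl1 came first in IP (7943 CPM per kilobase), then Glul (6732), Apoe (6186) and Slc1a2 (5358), whose long transcript took the most reads. In INPUT the 10 genes with the most reads included Malat1, a nuclear noncoding RNA, the synaptic SNARE gene Snap25, the calmodulin gene Calm3, the kinesin gene Kif5a, the microtubule gene Map1b, the kinase gene Prkcb, and Slc1a2, Sparcl1 and Glul. Those last genes were thus among the most abundant of the whole cortex as well. Reads of Glul and Scd2 overlap other annotated genes on the same stretch (5830403L16Rik and Mir8114 for Glul, Mir5114 for Scd2), and whether the counting used strand is not stated, so these values are uncertain to that extent. The same holds below for Clcn2 (with Fam131a and Polr2h), Echs1 (Paox), Pdha1 (Map3k15), Hk1 (Hk1os), Zic1 (Zic4), Xist (Tsix), Meg3 (Mir1906-1 and Mir770), Rpph1 (Ccnb1ip1) and Gapdh (Iffo1).

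Since CPM are shares of a library, gains and losses over all genes are equal in sum. CPM were higher in IP for 5194 genes and lower for 13604. In all, 48.5% of the reads would have to move between genes to turn the mean INPUT profile into the mean IP profile. Slc1a2 took up 13.7% of that gain, the 10 largest gains 36.0% and the 50 largest 53.7%, whereas the loss was spread, with 1.17% in Snap25, the largest loss, and 5.79% in the 10 largest. Of the gain, 50% was held by 38 genes, and of the loss, 50% by 491. When Slc1a2 was left out of the library totals, the median log2 ratio moved from −0.64 to −0.54, and without the 10, 50 and 100 most abundant IP genes it was −0.36, −0.20 and −0.10. Without 500 genes it was 0.19. When libraries were instead rescaled so that the median gene had the same level in all, the median log2 ratio came to −0.0065, and 5571 genes (41.8%) were then higher in IP and 5656 (42.4%) lower. No gene called higher on CPM was called lower after rescaling, but 997 of the genes called lower on CPM were called higher. Of the 4192 genes lower beyond 2-fold on CPM, 2650 remained so, and all 1403 higher beyond 2-fold remained higher beyond 2-fold. Rescaling raised log2 ratios by a similar amount at both ends, from 4.13 to 4.77 for Slc1a2 and from −5.43 to −4.80 for Sst. Genes called higher on CPM could thus hardly lose that call, and their persistence is no test of it. Ratios below are on CPM unless stated.

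The 15 highest ratios among genes with at least 10 CPM in the higher fraction ranged from 3.94 to 4.50. Besides Kcnj10 and Slc1a2 they held the transcription factor genes Gli2 (4.25), Gli3 (4.23), Rfx4 (4.13), Tead1 (4.03) and Sox9 (4.01), of which Gli2 and Gli3 act at the end of Sonic hedgehog signalling and Sox9 sets glial fate. Transporters and pumps were Slc4a4 (4.10), a sodium bicarbonate cotransporter, and Atp1b2 (4.08), a beta subunit of the sodium pump. Cell surface and signalling genes were Plxnb1 (4.12), a semaphorin receptor, Ptprz1 (4.05), a receptor phosphatase, the cadherin Celsr1 (4.02), Frem2 (3.94), an extracellular matrix protein, and Fgd6 (4.07), an exchange factor of small GTPases. The remaining gene, Acsf2 (3.98), encodes an acyl-CoA synthetase. Gli3, for example, had 194, 194, 213 and 203 CPM in IP against 11.1, 11.1, 10.5 and 9.87 CPM in INPUT, a narrow spread at a level far below that of Slc1a2. These genes spanned a wide range of abundance, from 58.7 CPM for Gli2 to 70368 CPM for Slc1a2 in IP, at nearly the same ratio.

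The 15 lowest ratios ranged from −5.43 to −4.67. At the far end stood 3 neuropeptide genes from the interneuron marker list, Sst (−5.43, chromosome 16, 23889573 to 23890958), Cck (−5.25) and Npy (−5.23). Pvalb (−5.11), the calcium buffer of fast-spiking cells, came next. Sst had 4.21, 2.37, 4.23 and 5.89 CPM in IP against 177, 173, 179 and 173 CPM in INPUT, so that 2.38% of its INPUT level was left in IP. The others were Slc32a1 (−4.68), the vesicular GABA transporter, the vesicle and membrane trafficking genes Snap25 (−4.74), Syngr3 (−4.76) and Mal2 (−4.77), the microtubule regulator Stmn3 (−4.71), Resp18 (−4.90), the calmodulin regulator Pcp4 (−4.88), Ttc9b (−4.72) and Gm11549 (−4.72). Among these 15 were also Pllp (−4.82), a myelin protein, and C1qb (−4.67), a complement subunit made by microglia. Snap25 (chromosome 2, 136713453 to 136782428) fell from 5965, 5893, 5989.9 and 5730.1 CPM in INPUT to 231, 186, 215 and 253 CPM in IP. Ttc9b overlaps Map3k10, so its value is uncertain.

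The upstream sequences of the genes at the ends of the ratio are shown to give the 2 loci a context, each as the 250 bases before the RefSeq start site in GRCm38.p6 and 5′ to 3′ on the gene's strand. Capitals mark CCAAT or its complement ATTGG for Kcnj10 (chr1:172340960-172341209, + strand) and the cyclic AMP response element TGACGTCA for Sst (chr16:23890845-23891094, − strand).
Kcnj10: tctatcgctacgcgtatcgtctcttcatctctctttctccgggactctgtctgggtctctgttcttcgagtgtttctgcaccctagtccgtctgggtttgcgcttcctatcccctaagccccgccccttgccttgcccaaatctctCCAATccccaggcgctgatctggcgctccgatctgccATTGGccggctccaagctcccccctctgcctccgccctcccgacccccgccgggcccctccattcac
Sst: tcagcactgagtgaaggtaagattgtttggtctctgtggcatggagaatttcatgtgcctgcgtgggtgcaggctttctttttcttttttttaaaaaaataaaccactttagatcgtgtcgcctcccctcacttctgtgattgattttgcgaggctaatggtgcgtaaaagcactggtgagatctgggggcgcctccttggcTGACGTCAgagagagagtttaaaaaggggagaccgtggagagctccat
CCAAT was found on either strand 2 times in the Kcnj10 stretch and in 34.5% of all 27025 promoters of the same length. It was found in 36.0% of the 10038 promoters of genes tested, in 38.9% of those of genes higher beyond 2-fold and in 32.8% of those of genes lower beyond 2-fold. TGACGTCA, which reads the same on both strands, ended 40 bases before the Sst start site and was found in 1.62% of all promoters, in 2.83% of those of genes tested, in 1.67% of the higher and in 3.19% of the lower group. The motifs do not overlap each other, and these shares are descriptions of letters in a window. The Sst interval from GENCODE M21 given above ends at 23890958, so it covers part of the Sst stretch, including TGACGTCA.

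Genes of glutamate and GABA clearance and the glutamine cycle were higher in IP for 11 of 12, each beyond 2-fold, with a median log2 ratio of 3.18 against −0.64 for all genes tested. Their summed level was 107804 to 111862 CPM in IP against 7912 to 8454 CPM in INPUT. Slc1a3, the second astrocyte glutamate transporter, rose by 3.61 on the log2 scale, and the GABA transporter Slc6a11 by 3.73. The exception was Slc38a5, a glutamine transporter, with 0, 0.179, 0.0783 and 0.155 CPM in IP against 1.75, 1.65, 1.75 and 2.95 CPM in INPUT, where single libraries rest on few reads. Among genes of potassium, water and pH control at the endfoot, 13 of 14 were higher (median 3.32), where 23.7% of all genes tested were. Aqp4, the endfoot water channel, had 1389.8 ± 41.3 CPM in IP against 129.7 ± 11.0 CPM in INPUT (SD, n = 4 each). The chloride channel Clcn2 did not pass, at 40.2, 39.6, 35.3 and 36.8 CPM in IP against 35.0, 33.9, 36.7 and 37.1 CPM in INPUT, and was called higher after rescaling. Of the gap junction genes Gja1, Gjb6 and Gjb2 all were higher, but Gjb2 by only 0.75.

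Metabolic lists differed in how far they rose. Of all genes tested, 23.7% were higher, and 10.5% were higher beyond 2-fold. All 19 genes of fatty acid oxidation were higher beyond 2-fold, from 1.68 for Echs1, enoyl-CoA hydratase, to 3.88 for the thioesterase gene Acot11, which overlaps Fam151a. Their median was 2.65. All 16 genes of cholesterol synthesis were higher, 11 of them beyond 2-fold, with a lower median of 1.78 and a range from 0.39 for Pmvk, phosphomevalonate kinase, to 2.24 for Dhcr7, the last reductase of the pathway. Hmgcs1, the most abundant of them, encodes the synthase that feeds HMG-CoA reductase and had 1151 ± 24.8 CPM in IP against 261 ± 11.1 CPM in INPUT (SD, n = 4 each). In the serine, glycine and folate list 11 of 12 rose (median 2.09), led by Gldc, the glycine decarboxylase, at 3.79. Mthfd2, a mitochondrial folate enzyme, was the only one called lower (−0.62, adjusted p = 0.033, limma), with 2.01, 1.57, 3.68 and 1.67 CPM in IP against 2.88, 3.30, 2.89 and 4.22 CPM in INPUT. Its groups overlapped, and the call was lost after rescaling and when any of 5 libraries was left out.

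Lipoprotein and lipid transport genes split, with 9 of 12 higher and 3 lower, all beyond 2-fold, beside 10.5% and 31.4% of all genes tested. The higher ones included Apoe (3.33), Clu (3.28) and the cholesterol exporter Abca1 (3.32), and the lower ones were the exporter Abcg1 (−3.91), the lipase Lpl (−3.11) and the HDL receptor Scarb1 (−1.38). Abcg1 had 7.88, 6.27, 8.19 and 6.70 CPM in IP against 107, 103, 116 and 113 CPM in INPUT. Of the glycogen and lactate list, 12 of 13 were higher (median 2.07), where 23.7% of all genes tested were. The lactate transporter gene Slc16a3, also listed, was below the threshold for testing. Its means were 0.159 CPM in IP and 1.70 CPM in INPUT, which rest on few reads. All 3 glycogen phosphorylases of the list, Pygm (3.77), Pygb (3.20) and Pygl (1.24), rose, and Pygb was more abundant in IP than Pygm, with 305 against 151 CPM per kilobase of exon. Ldha, a lactate dehydrogenase subunit, did not differ beyond its spread on CPM (182, 150.4, 113 and 155 CPM in IP, 148, 138, 150.2 and 150.0 CPM in INPUT), while Ldhb, the other subunit, rose by 1.13. Of 17 glycolysis genes, 5 were higher and 7 lower, beside 23.7% and 64.0% of all genes tested. The median of this list was −0.05, against −0.64 for all genes tested. Its ends were Aldoc, an aldolase, at 3.44 and Eno2, the neuronal enolase, at −4.37. After rescaling, 13 of the 17 were higher, so the count on this list depends on the scale. Genes named for the neuronal side of glucose and lactate supply were also mixed, from Slc2a3, a glucose transporter, at −3.46 to Pdha1, of pyruvate dehydrogenase, at 0.65, with Hk1, a hexokinase, at 0.02. Ldha and Hk1 were called higher after rescaling (0.65 and 0.65).

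**Figure D3:**
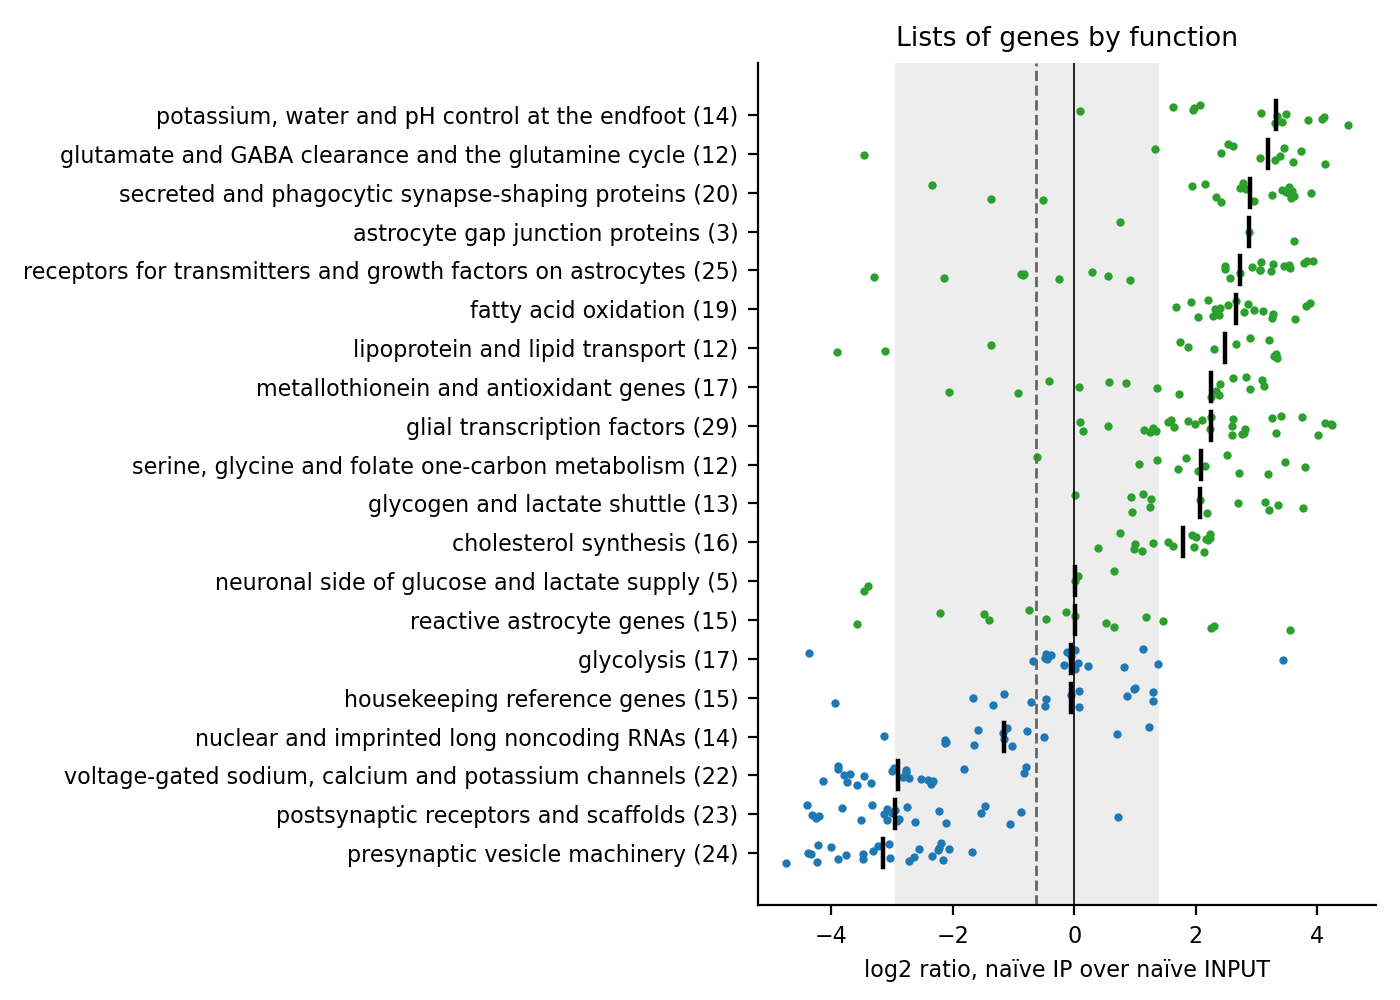
Log2 ratio of naïve IP over naïve INPUT (x axis) for the genes of each function list, 1 point per gene, with the list's median as a black bar and the number of genes tested in brackets. The dashed line is the median of all genes tested, −0.64, and the grey band their 10th to 90th percentile; most astrocyte lists have medians above the band, and the synapse lists have medians near or below its lower edge.

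Of 29 glial transcription factor genes, 27 were higher and none was called lower (median 2.24), where 23.7% and 64.0% of all genes tested were. Nfib, the most abundant, had 484 ± 30.4 CPM in IP against 203 ± 6.80 CPM in INPUT (SD, n = 4 each) and a log2 ratio of 1.25, while Zic1 had 14.0, 10.3, 17.9 and 10.6 CPM in IP against 12.7, 9.48, 14.8 and 11.5 CPM in INPUT and did not pass, though it was called higher after rescaling (0.74). Receptors for transmitters and growth factors were higher for 18 and lower for 5 of 25 (median 2.73). The highest was Notch1 (3.93). The lowest was Grm5, a metabotropic glutamate receptor also used by neurons, with 40.4, 37.9, 30.4 and 40.5 CPM in IP against 385, 347, 371 and 355 CPM in INPUT. The beta-adrenergic receptor Adrb1 was lower as well, with 12.0 ± 2.48 CPM in IP against 52.3 ± 3.28 CPM in INPUT (SD, n = 4 each). Gabbr1, a subunit of the GABA-B receptor, was abundant in both fractions at 1613 ± 66.9 CPM in IP against 1103 ± 34.3 CPM in INPUT, a log2 ratio of 0.55. Among secreted and phagocytic genes that shape synapses, 17 of 20 were higher, with Megf10, an engulfment receptor, highest at 3.90, and the matrix gene Tnr was lower at −2.34.

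Genes of reactive astrocytes were split on CPM in these naïve mice. Only 15 of 23 reached a mean of 1 CPM, and 6 of them were higher and 6 lower (median 0.02), where 23.7% and 64.0% of all genes tested were. After rescaling, 8 were higher and 3 lower. Gfap, the intermediate filament also made by resting astrocytes, had 793 ± 67.7 CPM in IP against 67.7 ± 3.37 CPM in INPUT (SD, n = 4 each). Lcn2 and C3, by contrast, had means of 0.14 and 0.225 CPM in IP, where 3 reads are worth 0.116 to 0.147 CPM. S1pr3 was the lowest of the list at −3.57. Metallothionein and antioxidant genes were higher for 13 of 17 (median 2.25), with Gstm1, a glutathione transferase, at 3.12 and Gpx1, a glutathione peroxidase, at −2.06.

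The presynaptic, postsynaptic and voltage-gated channel lists were lower for all but 1 of their genes tested, against a background of 64.0% of all genes. All 24 presynaptic genes were lower beyond 2-fold (median −3.14), from Snap25 to Cplx2, a complexin, at −1.69. Of the postsynaptic receptors and scaffolds 22 of 23 were lower (median −2.95), with Nrgn, a calmodulin-binding protein of spines, lowest at −4.39. Camk2a, the kinase of postsynaptic plasticity, had 178, 205, 218 and 245 CPM in IP against 1603, 1742, 1997 and 1761 CPM in INPUT. Gabra2, a GABA-A receptor subunit, was the exception, with 111, 122, 121 and 108 CPM in IP against 75.3, 66.4, 71.3 and 66.9 CPM in INPUT, a log2 ratio of 0.72 (adjusted p = 1.1e-07, limma). All 22 voltage-gated channel genes tested were lower (median −2.90), from Scn2b at −4.14 to Kcna2 at −0.82 and Kcnq3 at −0.80, which lie close to the median of all genes. Kcna2 was not called after rescaling (log2 ratio −0.18).

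Some related genes lay at opposite ends. Of 15 pairs of family members compared, 12 had one member higher and the other lower in IP, each called. The pairs were chosen with earlier results of these data known, so this count describes these pairs and not related genes in general. Beta subunits of the sodium pump split as Atp1b2 at 4.08 and Atp1b1 at −2.78. Atp1b1 had 207, 171, 211 and 208 CPM in IP against 1308, 1358, 1391 and 1401 CPM in INPUT. Glutamate transporters split as Slc1a2 at 4.13 and the neuronal Slc1a1 at −3.95, glucose transporters as Slc2a1 at 1.27 and Slc2a3 at −3.46, and lactate transporters as Slc16a1 at 0.93 and Slc16a7 at −3.40. The same held for Gja1 and Gjd2, the neuronal connexin 36 (−3.17), for the carnitine palmitoyltransferases Cpt1a (3.64) and Cpt1c (−1.67), and for the acyl-CoA synthetases Acsbg1 (3.82) and Acsl4 (−2.09). Inositol trisphosphate receptors split into Itpr2 at 3.54 and Itpr1 at −3.14. Fatty acid binding proteins gave Fabp7 at 2.66 and Fabp3 at −4.25, the Ndrg family Ndrg2 at 3.31 and Ndrg4 at −3.31, and the amino acid transporters Slc38a3 at 3.39 and Slc38a1 at −1.93. For Aldoc and Aldoa the lower member was only at −0.68, and it was not called after rescaling. The pairs Mt1 (2.25) and Mt3 (1.72), and Pygm and Pygb, rose together, and in the last pair, Ldhb and Ldha, only Ldhb was called. Atp1b1, Slc1a1 and Fabp3 overlap other genes (Nme7, 4430402I18Rik and Zcchc17).

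**Figure D4:**
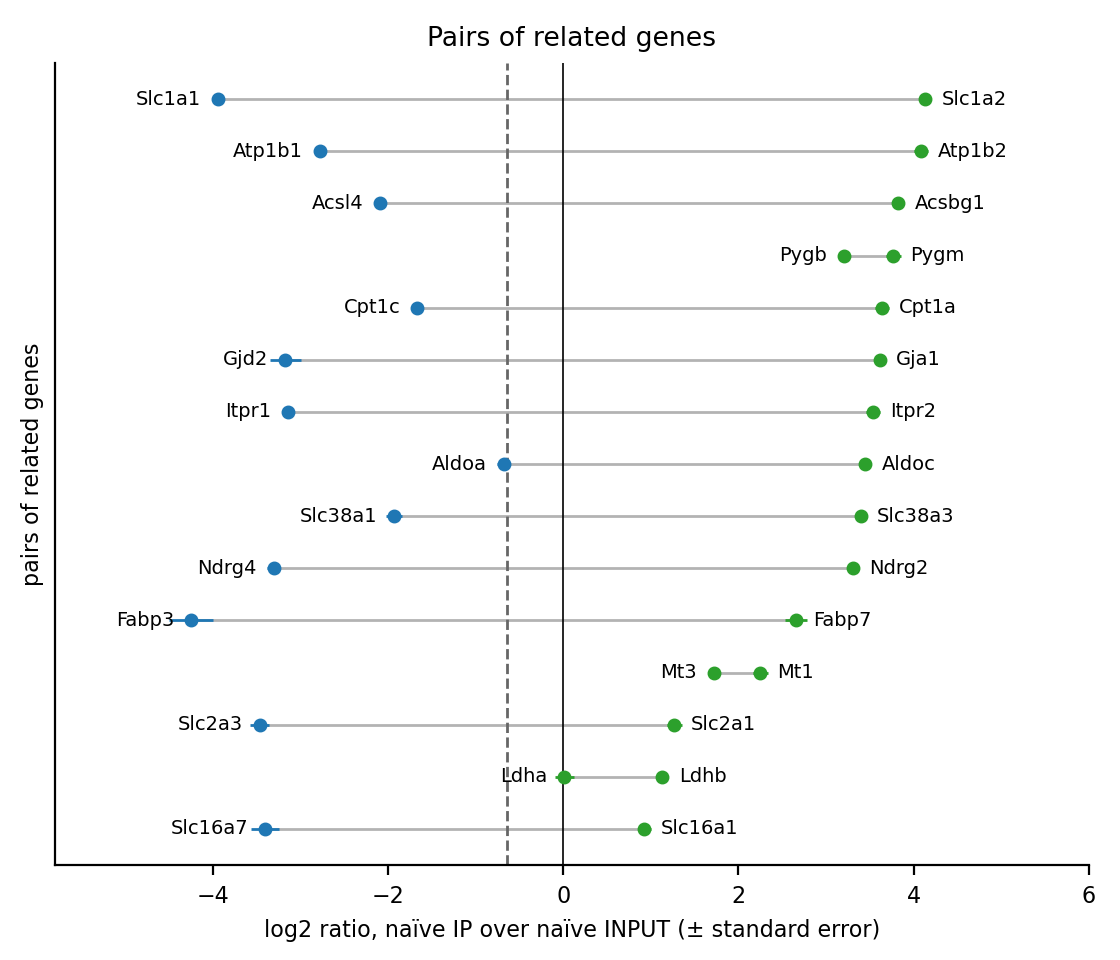
Log2 ratio of naïve IP over naïve INPUT (x axis, ± standard error from limma, 4 libraries each) for both members of 15 pairs of related genes, joined by a line. In 12 pairs the members lie on opposite sides of 0, and the dashed line marks the median of all genes tested, −0.64.

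Markers of other cell types were used to measure the RNA of other cells left in IP. There were 106 distinct markers of neurons, mature oligodendrocytes, microglia and endothelium tested, which leaves out the lists of other cells described below. Of these 103 were lower and 3 higher, where 64.0% and 23.7% of all genes tested were. The median log2 ratio of these 106 was −3.47, so that on CPM a median of 8.61% of the INPUT level remained in IP. The lowest value was 2.38%, for Sst. These percentages depend on the scale between libraries. After rescaling, median log2 ratios were −3.14 for pan-neuronal, −3.06 for glutamatergic and −3.37 for interneuron markers. They were −3.13 for mature oligodendrocytes, −2.59 for microglia and −2.11 for endothelium, so more was kept on that scale. Among the pan-neuronal markers all 18 were lower (median −3.77), and the median gene kept 6.93% to 8.32% of its INPUT level across the 4 IP libraries. Their summed level was 1415 to 1622 CPM in IP against 15894 to 16716 CPM in INPUT. Map2, a dendritic microtubule protein, kept the most, with 569.9, 581, 518 and 579 CPM in IP against 1263, 1347, 1225 and 1185 CPM in INPUT. Interneuron markers were lower for all 17 and kept 5.29% to 6.65%, with Calb2, calretinin, the highest of them at −2.09. Glutamatergic markers kept 7.87% to 8.91%, and 15 of 16 were lower. The one that was higher was Rorb, a nuclear receptor used as a marker of layer 4 neurons, with 622, 671, 597 and 669.5 CPM in IP against 208, 219, 193 and 212 CPM in INPUT.

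For mature oligodendrocytes 17 of 18 markers were lower (median −3.77, 5.81% to 9.63% kept). Cldn11, a myelin claudin, was lowest at −4.38, with 2.15, 1.93, 4.35 and 2.56 CPM in IP against 53.2, 59.3, 61.0 and 52.4 CPM in INPUT. Cnp, a myelin enzyme, was slightly higher (0.37), but it overlaps Dnajc7. In oligodendrocyte precursors 9 of 12 were lower, a share not far from the 64.0% of all genes, with the lowest ratio, −4.09, for Enpp6. The summed level of these 12 was 203 to 294 CPM in IP against 377 to 412 CPM in INPUT. The transcription factor genes Olig1 (1.28) and Olig2 (1.22) were higher, although Olig2 had 68.6, 64.2, 29.0 and 85.0 CPM in IP, where replicate 11 overlapped the INPUT values of 24.4, 30.5, 21.9 and 22.5 CPM. Without that library the log2 ratio of Olig2 was 1.55. Microglial markers were lower for all 20 (median −3.21, 7.99% to 9.46% kept). They ranged from C1qb, at 1.66, 1.07, 1.41 and 1.51 CPM in IP against 38.2, 35.8, 42.0 and 36.3 CPM in INPUT, to Ptprc at −0.98, which was not called after rescaling.

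Vascular markers were the least uniform. Of 17 endothelial genes 16 were lower (median −2.71, 12.7% to 16.0% kept), with Ly6c1 at −4.43. Slco1c1, a thyroid hormone transporter, was instead higher at 3.00, with 314, 257, 241 and 290.0 CPM in IP against 40.9, 34.9, 26.5 and 35.9 CPM in INPUT, and raised the summed level of the list to 277 to 347 CPM in IP against 172 to 232 CPM in INPUT. Of 8 mural genes 6 were lower (5 after rescaling), a share near the 64.0% of all genes, among them Kcnj8 (−3.53), while the receptor genes Pdgfrb (2.37) and Notch3 (2.46) were higher. Pdgfrb had 132, 124, 149 and 124 CPM in IP against 24.4, 24.3, 27.4 and 25.6 CPM in INPUT.

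**Figure D5:**
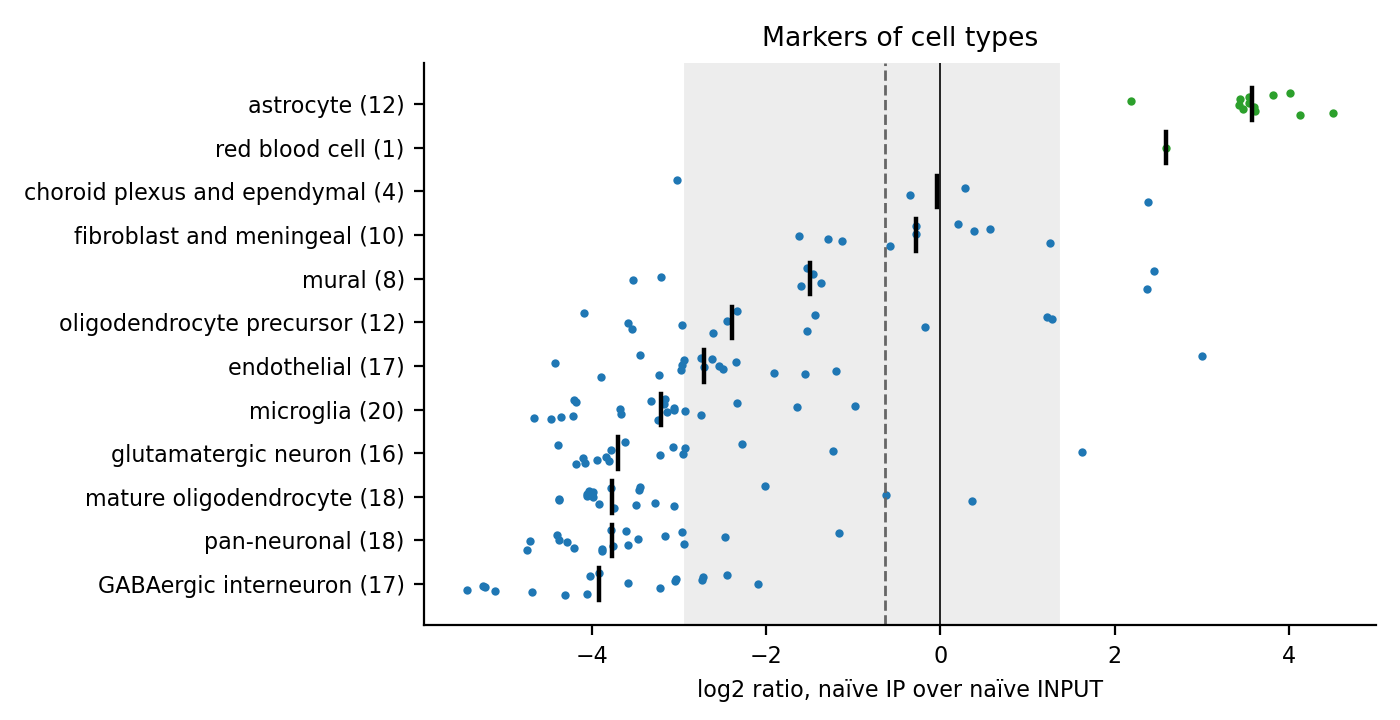
Log2 ratio of naïve IP over naïve INPUT (x axis) for markers of each cell type, 1 point per gene, with the list's median as a black bar and the number of genes tested in brackets. The dashed line is the median of all genes tested, −0.64, and the grey band their 10th to 90th percentile. Neuronal, mature oligodendrocyte and microglial medians lie below the band, and the astrocyte median, 3.58, lies above it.

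Fibroblast and meningeal markers varied between IP libraries. Of 10 genes 1 was higher and 4 lower (median −0.28), beside 23.7% and 64.0% of all genes tested, or 4 and 3 after rescaling. Their summed level was 553 to 1551 CPM in IP against 407 to 725 CPM in INPUT. IP replicate 11 stood apart, with a median of 164% of the INPUT level, where the other IP libraries had 60.8% to 76.5%. Ptgds, a prostaglandin synthase, had 728, 464, 1355 and 475 CPM in IP against 427, 319, 601 and 555 CPM in INPUT and was not called. Col1a2, a collagen chain, was higher at 1.25, whereas Lum, a proteoglycan, was lower at −1.62. Without IP replicate 11 the log2 ratios of Col1a2, Lum and Meg3 were 1.08, −1.80 and −1.77, each still called (limma). Among choroid plexus and ependymal genes 4 of 9 were tested, and Enkur alone was called, at −3.03. Ttr, made by the choroid plexus, had 114, 3.27, 3.45 and 1.59 CPM in IP against 13.4, 0.294, 0.449 and 0.966 CPM in INPUT, so a single library of each fraction carried most of it. It was not called with all 8 libraries, but it was called without INPUT replicate 3 (log2 ratio 3.50), without IP replicate 13 (3.06) and after rescaling (2.97). Of the red blood cell genes only Alas2, which overlaps Apex2, was tested (2.59), and the 4 globin genes of the list had a highest value of 0.0979 CPM, for Hba-a2 in IP, and 0 in INPUT. The part of meningeal or choroid RNA in the other results was not tested.

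The residual of other-cell markers was lower for genes with fewer exon bases, merged over all annotated transcripts of a gene. Markers of the 6 lists with exons of up to 3891 bases in all kept a median of 7.36% of INPUT (53 genes), and longer ones kept 10.5% (53 genes). Over all genes the same division gave medians of 62.3% and 65.7%. Spearman's rho between exon length and log2 ratio was 0.41 across the 106 markers and 0.04 across the 13216 genes with a length, as a description across genes that share the same libraries. Within the 6 lists rho ranged from 0.24 for microglia and 0.27 for pan-neuronal markers to 0.58 for mature oligodendrocytes.

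Long noncoding RNAs lay below protein-coding genes. Of 306 long noncoding genes tested, 34 were higher (11.1%) and 227 lower (74.2%), beside 23.7% and 64.0% of all genes tested. Their median log2 ratio was −1.20, where the 12831 protein-coding genes had −0.62. In the list of nuclear and imprinted noncoding RNAs 11 of 14 were lower (median −1.16) and 9 after rescaling, a count to be read against the 64.0% of all genes that were lower. Malat1 had 3339.8, 3500.3, 2223 and 3060.5 CPM in IP against 5888, 6773, 5082 and 6853 CPM in INPUT, which left it among the more abundant RNAs of IP. Peg13 was lowest at −3.14. Meg3 had 498, 428, 166 and 428 CPM in IP, with replicate 11 again the lowest, and 1865, 1482, 1104 and 1830.3 CPM in INPUT. Xist, the RNA that coats the inactive X chromosome of females, was present in 2 of the 4 libraries of each fraction, at 518 and 576 CPM in IP against 167 and 145 CPM in INPUT. Among the libraries that held it the IP values were thus the higher ones, unlike those of the other nuclear RNAs named, but with 2 libraries each this was not tested. Short structural RNAs of INPUT replicate 14 stood apart, with Rpph1 at 4790.0 CPM and Rmrp at 779.8 CPM, where the other INPUT libraries had at most 1461 and 121 CPM. Both were lower in IP, at −3.34 and −4.45.

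Reference genes used to normalize other assays did not give a common scale. Of 15, 5 were higher and 7 lower, beside 23.7% and 64.0% of all genes tested, with Hprt lowest at −3.94. The balance turned after rescaling, to 9 higher and 4 lower. Actb, beta-actin, had 1618, 1678, 1784 and 1617 CPM in IP against 1501, 1552, 1752 and 1554 CPM in INPUT and was not called on CPM, but it was called higher after rescaling (0.71) and lower after quantile normalization (−0.44). Gapdh, an enzyme abundant in all cells, had only 3.42 ± 0.441 CPM in IP against 4.82 ± 0.756 CPM in INPUT (SD, n = 4 each), and its log2 ratio of −0.48 turned to 0.14 after rescaling and 0.44 after quantile normalization. The authors kept uniquely mapped reads, and how many reads of Gapdh that left out was not tested.

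The same contrast in the stressed mice, which shares no library with the naïve one, gave 3143 genes higher and 8332 lower of 13333 tested. Of the naïve genes higher beyond 2-fold that were tested there, 1398 of 1399 were called in the same direction, and of those lower beyond 2-fold 4162 of 4163. A test of the difference between the naïve and stress ratios called 3 of 13255 genes (limma, adjusted p under 0.05). None of the genes checked by name was among them. Slc38a5, Gjb6, Pygl, Slc16a3, Abca1, Lpl, Scarb1, Adrb1, Lcn2, C3 and Hba-a2 were not part of that check. Kcnj10 was at 4.63 and Sst at −5.77 in the stressed mice. Mthfd2 was at 0.63 there against −0.62 in naïve mice, which did not pass.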

How the data were processed

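RNA of 4 naïve IP and 4 naïve INPUT libraries was sequenced after rRNA removal. The authors deposited log2 CPM per gene, made from uniquely mapped fragments (STAR, mm10, HTSeq, RefSeq genes; versions not given in the sources used here). From the values, a constant of 0.25 reads for a library of mean size had been added before the logarithm; it was removed, and whole reads were recovered for 100% of values (tolerance 0.1 reads). Depth was 20429698 to 25814364 reads in IP and 16985887 to 20051450 in INPUT, so that 3 reads are worth at most 0.177 CPM, counting error only.

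Groups came from the sample labels. Genes with a mean above 1 CPM were tested on log2(CPM + 0.1) with limma 3.58.1 (R 4.3.3, moderated statistics with a trend, Benjamini-Hochberg adjusted p under 0.05), and with its test against a 2-fold change. Libraries were treated as independent, although IP and INPUT share mice, and nothing in the labels ties libraries to mice. The script was tested on simulated data with as many genes raised as lowered. That simulation was not built to hold a scale shift between fractions. Alternatives were other pseudocounts, filters, scalings, limma-voom on recovered reads, no variance trend, all 16 libraries in one model, and leaving out each library. Tables were made with Python 3.11.15, NumPy 2.4.6 and pandas 2.3.3, and plots with matplotlib 3.10.9. Exon lengths came from GENCODE M21, where 23614 of 24060 symbols had a single gene, and promoters from RefSeq (GRCm38.p6).

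Named were the 15 highest and 15 lowest ratios with at least 10 CPM in the higher fraction, the 10 genes with most reads in each fraction, the highest, lowest and most abundant member of each list, 15 pairs of related genes and 4 markers. Some genes that this rule picks are not reported here. Members and lists were chosen with earlier results of these data known. Rpl22, Aqp4, Gjb6, Pygl, Slc16a3, Clu, Abca1, Lpl, Scarb1, Adrb1, Lcn2, C3, Olig2, Hba-a2, Meg3, Rpph1, Rmrp, Gapdh and the promoter motifs were chosen after their values were seen.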

Additional observations from a re-analysis of the deposited data

Results flagged for a closer look

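Of 298 sets of 4 libraries of a fraction examined (the named genes, shares of abundant genes and the residual of each marker list), 24 held a library whose gap to the nearest of the others took up an unusually large part of the range, where chance gives about 1 in 20. IP replicate 11 was the library apart for Plxnb1 (1094 CPM), Kcnq3 (45.2 CPM), Olig1 (99.9 CPM) and Clu (7970 CPM). The same library kept the most of the INPUT level for oligodendrocyte precursor markers (a median of 26.0%) and for fibroblast and meningeal markers (163.7%). IP replicate 2 stood apart for Ttr (113.6 CPM), Aldoc (10548 CPM), Grm3 (1297 CPM) and S1pr3 (1.32 CPM), and IP replicate 8 for Slc4a4 (2773 CPM) and Atp1b1 (171 CPM). INPUT replicate 14 stood apart for Rpph1 (4790.03 CPM), Rmrp (779.8 CPM), Kcna2 (574 CPM) and Slc38a3 (59.6 CPM). INPUT replicate 3 did so for Ttr (13.4 CPM), Slc6a11 (117 CPM) and Tead1 (5.31 CPM), INPUT replicate 7 for Gli2 (2.24 CPM), Apoe (1191 CPM) and Ldha (138 CPM), and INPUT replicate 16 for Ptprz1 (139.8 CPM) and Slc38a5 (2.95 CPM).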

How the results depend on the processing

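The scale between libraries moved the counts most. After rescaling by the median ratio 5571 genes were higher and 5656 lower (2290 and 2650 beyond 2-fold), and after quantile normalization 5646 and 5483 (2307 and 2442). In the stressed mice rescaling gave 5442 higher and 5529 lower. The median log2 ratio was −0.58 with a pseudocount of 1, −0.54 with no filter, −0.57 above 5 CPM, −0.59 above 1 FPKM, −0.0065 after rescaling, 0.017 after quantile normalization and −0.36 with totals without the 10 most abundant IP genes. For totals without 1, 50, 100, 500 and 1000 genes, chosen after seeing the data, it was −0.54, −0.20, −0.098, 0.19 and 0.33. Leaving out each of the 8 libraries in turn gave 11476 to 11619 genes that differed, 3086 to 3166 higher and 8373 to 8492 lower, and beyond 2-fold 5440 to 5580, 1369 to 1416 and 4051 to 4204. Likewise the median was −0.65 to −0.62 and the difference in the share of the 10 most abundant genes 15.2 to 15.4 percentage points. The stress contrast was not run without single libraries.

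Of 2736 values of named genes under alternatives, 2684 kept direction and side of the threshold. Directions turned for Gapdh after rescaling (0.14) and quantile normalization (0.44), and after the latter for Mthfd2 (0.40), Actb (−0.44) and Ptprc (0.048). With 1 library left out, Ldha ranged from −0.089 to 0.14, Xist from −0.55 to 3.16, Hk1 from −0.017 to 0.041 and Zic1 from −0.056 to 0.21, and none of these was called on CPM with all 8 libraries. After rescaling Ldha (0.65), Hk1 (0.65) and Zic1 (0.74) were called higher, and Xist was not. Xist was present in 2 of the 4 libraries of each fraction, so leaving 1 library out made the share of libraries holding it unequal between fractions. For Ldha, Hk1 and Zic1 the cause was not tested. No paired analysis was possible because the columns carry no replicate numbers shared between IP and INPUT. Genes near 1 CPM rest on few reads, which limits ratios such as those of Slc38a5, S1pr3 and Enkur.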
